A study of Gallus gallus with 6 samples.

Results

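The complement cascade was followed through 10 of its genes in the uterovaginal junction of breeder hens, the oviduct segment that holds the sperm storage tubules. The list takes in MASP1 and MASP2, named for proteases that travel with lectins, and the terminal components C5, C6, C7, C8A and C8B. It also holds the central component C3, the classical pathway protease C1S and the regulator CFI. Members were the rows of the deposited table that carry these names, and 9 of the 10 had a row among 20285. No row carried the name C6, which was not analysed here. MASP1 and C8B were chosen because they rose under heat in these same libraries, so their values are a description with no test. The other 8 were chosen by their place in the cascade, though with earlier results of these data known. Of the 9 rows, 8 had enough counts to be tested among 15655 genes, and C8A did not.

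Breeder hens had spent 6 h at 36 °C, the heat stress group, or were kept at a thermoneutral 23 °C. Each group had 3 libraries, and each library held pooled RNA from 4 hens, so that 24 hens are represented, a replicate is a pool and p-values measure the spread between pools. The labels give neither the strain nor the age of the hens. Library totals ran from 23438814 to 29502991 counts. EPCAM, an epithelial adhesion protein, had 2150 to 2470 CPM (counts scaled to library size) in heat stress libraries. In thermoneutral libraries it had 1930 to 2080 CPM. PGR, the progesterone receptor of the oviduct, had 565 to 632 CPM in heat stress libraries and 467 to 591 CPM in thermoneutral libraries. Neither is particular to the uterovaginal junction, so they do not test the tissue label. Heat stress replicate 1 stood apart from the other heat stress libraries. On the first principal component, with 46.8% of the variance, it scored −10.9, against −44.1 and −37.1 for heat stress replicates 2 and 3 and 27.1 to 33.7 for thermoneutral libraries.

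Complement is a chain of plasma proteins that mark and lyse microbes. In the lectin pathway, collectins and ficolins bind sugars on a surface and carry MASP proteases, which cleave the early components so that C3 and then C5 are cut. The terminal components C5b, C6, C7, C8 and C9 then assemble into a pore, with C8 made of alpha, beta and gamma chains. The liver makes most of the circulating components, and mucosal tissues make some of their own. In the female tract, complement is known as part of the defence against microbes and also meets sperm.

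MASP1, whose mammalian counterpart encodes serine proteases of the lectin pathway, lies on the plus strand of chromosome 9 at 15017996 to 15035605 (GRCg6a). It had 21, 211 and 170 counts in heat stress replicates 1, 2 and 3, against 4, 2 and 4 counts in thermoneutral replicates 1, 2 and 3. Scaled to library size these were 0.844, 7.57 and 7.39 CPM in heat stress libraries, against 0.162, 0.0826 and 0.155 CPM in thermoneutral libraries. Every heat stress library was above every thermoneutral library, and heat stress replicate 1 was far below the other heat stress libraries. The fitted log2 change was 5.25. The gene passed the low-count filter through its heat stress libraries alone, so a tested MASP1 had to be higher there. Set against the pooled thermoneutral counts, the level was 6.30-fold higher in heat stress replicate 1, 56.5-fold in replicate 2 and 55.2-fold in replicate 3. The pooled thermoneutral count was only 10, so these folds are rough. In mammals the gene yields several protein products by alternative splicing, and birds have been described as lacking the one called MASP-1. Gene counts do not tell products apart, and no protein or protease activity was measured here.

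C8B, the beta chain of C8, lies on the minus strand of chromosome 8 at 26178921 to 26194902. It had 90, 428 and 544 counts in heat stress replicates 1, 2 and 3, against 38, 32 and 35 counts in thermoneutral replicates 1, 2 and 3. In CPM these were 3.62, 15.4 and 23.6 in heat stress libraries, against 1.54, 1.32 and 1.36 in thermoneutral libraries. Again the groups did not overlap and heat stress replicate 1 was the lowest of its group. The fitted log2 change was 3.33. Against the pooled thermoneutral counts, heat stress replicate 1 was 2.57-fold higher, replicate 2 was 10.9-fold higher and replicate 3 was 16.8-fold higher. The thermoneutral libraries lay close together, with a coefficient of variation of 8.19%, while in heat stress libraries it was 70.9%. In all 15655 genes tested, 21.5% had every heat stress library above every thermoneutral library. Both genes were picked for this, so nothing is read from that share.

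**Figure D1:**
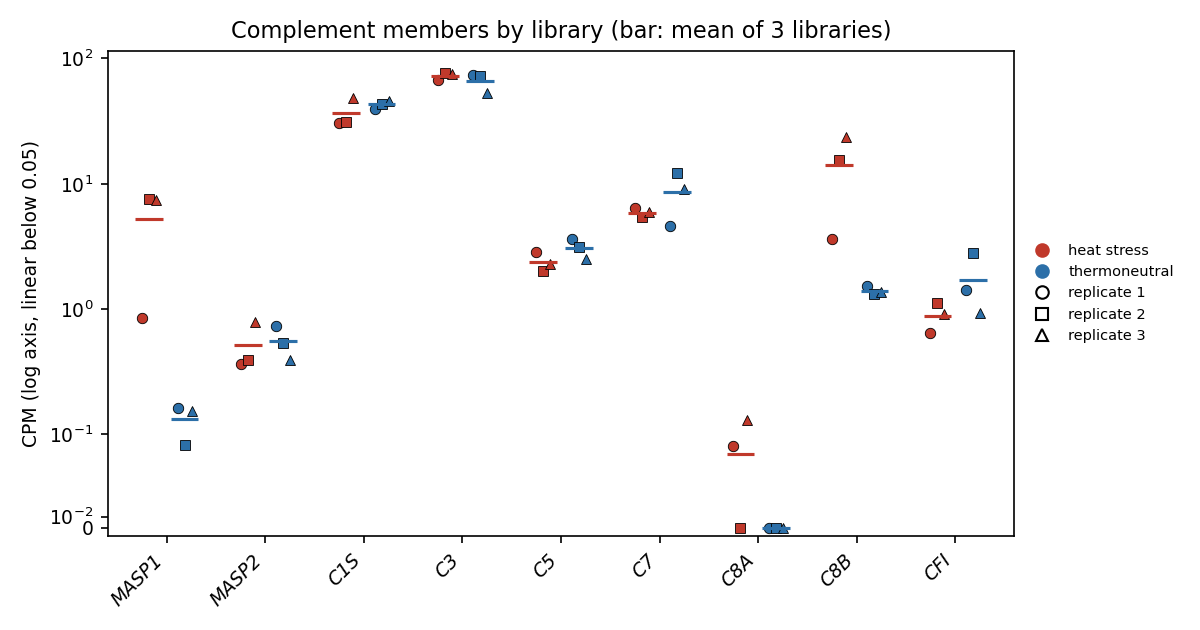
CPM of the 9 complement members with a row, by library, on an axis that is logarithmic above 0.05 CPM and linear below it. Symbols are single libraries, bars the means of 3, heat stress left of thermoneutral; MASP1 (0.844 to 7.57 against 0.0826 to 0.162 CPM) and C8B (3.62 to 23.6 against 1.32 to 1.54 CPM) are the members whose groups do not overlap.

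The partner chains of C8B within C8 were measured too. C8A, the alpha chain, lies on the plus strand of the same chromosome at 26158855 to 26174657, 4263 bp from C8B, with the 3′ ends of the pair facing each other. It had 2, 0 and 3 counts in heat stress replicates 1, 2 and 3, and 0 in each thermoneutral library, where a count of 0 allows up to 0.117 to 0.124 CPM, a limit that covers counting error only. No library exceeded 3 counts, so no fold is given and a difference was not detectable at this depth. C8G, the gamma chain, had 9.08, 7.46 and 6.65 CPM in heat stress libraries, against 8.90, 12.5 and 9.21 CPM in thermoneutral libraries. Its groups overlapped, with a log2 change of −0.40 (SE 0.19, edgeR adjusted p = 0.178). The other neighbour of C8B, DAB1, lies 6403 bp away on the same strand and averaged 32.1 CPM in heat stress libraries and 35.0 CPM in thermoneutral libraries (log2 change −0.12, SE 0.35).

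For MASP1 the nearest row before it is BCL6, a transcriptional repressor, 63546 bp away on the same strand. BCL6 was higher under heat stress by a log2 change of 0.42 (SE 0.11, edgeR adjusted p = 0.0346). The nearest row after it, PDCD1, an immune checkpoint receptor named through RefSeq, starts 10243 bp away on the opposite strand, with a log2 change of −0.41 (SE 0.27, edgeR adjusted p = 0.303). No row overlaps MASP1 or C8B in the file's coordinates.

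Across the 6 libraries, the genes whose profiles lay nearest to MASP1 and C8B were chaperones and their partners. Likeness was the root mean square distance between log2 CPM values centred on the mean of the 6 libraries, over tested genes with a symbol in the file. Nearest to MASP1 were DNAJA4, an HSP40 co-chaperone (distance 0.417), HSPB8, a small heat shock protein (0.479), and BAG3, a partner of HSPB8 (0.515). MASP1 had only 4, 2 and 4 thermoneutral counts, so the prior count of 2 in log2 CPM raises those values and narrows its profile. Its distances thus depend on that setting, and no other prior count was tried. Nearest to C8B were DNAJB1, an HSP40 co-chaperone (0.313), BAG3 (0.392) and HSPH1, an exchange factor of HSP70 (0.410). A gene chosen for a large rise will lie near others with a large rise, so the list is a description. The distance also reads the order within the heat stress group, so the order these genes share with MASP1 or C8B is part of how they were picked. DNAJA4 had 376, 1990 and 1760 CPM in heat stress replicates 1, 2 and 3, against 87.8, 90.6 and 93.0 CPM in thermoneutral libraries, and was thus lowest in heat stress replicate 1 as well. Over all genes tested, that library also lay nearest to the thermoneutral libraries on the first principal component (−10.9, against −44.1 and −37.1 for replicates 2 and 3). A low value there is thus not particular to these genes. From heat stress replicate 1 to replicate 2 the ratio was 8.97 for MASP1, 4.25 for C8B and between 4.01 and 5.47 for the 5 chaperone genes. C8B was 1.54 times higher in heat stress replicate 3 than in replicate 2, whereas for MASP1 and these 5 genes that ratio was 0.645 to 0.976.

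**Figure D2:**
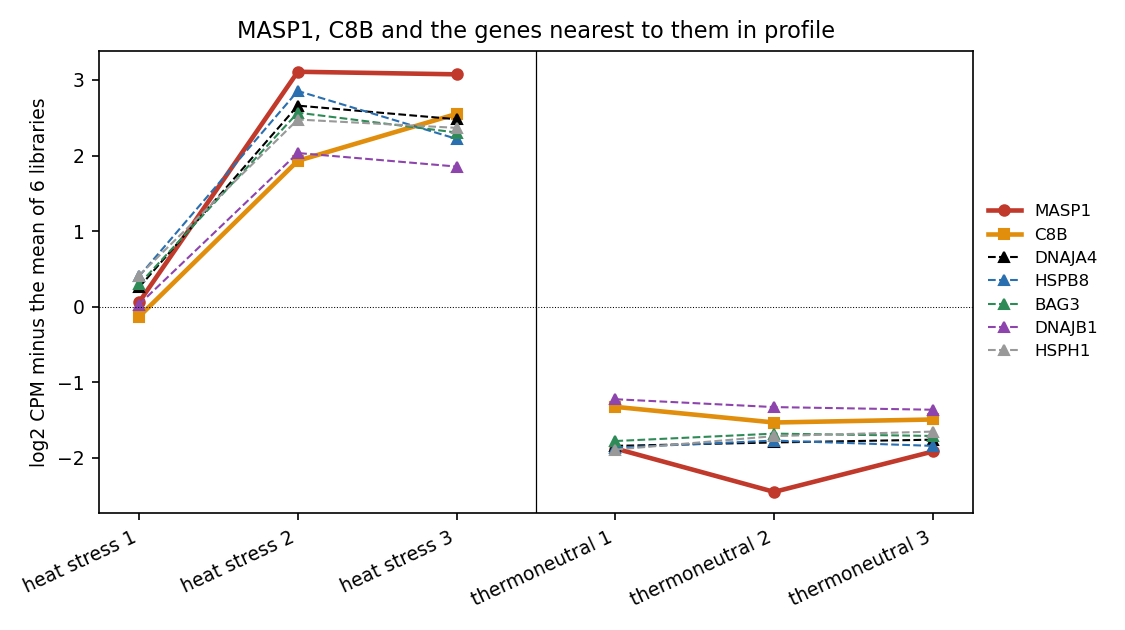
Log2 CPM of MASP1, C8B and the 5 genes nearest to them, each minus its mean over the 6 libraries, with heat stress libraries on the left; lines join the values of 1 gene and mark no order. All 7 genes are lowest among heat stress libraries in replicate 1, and C8B alone among them is highest in replicate 3 (ratio to replicate 2 of 1.54). The 5 were picked by distance over these same libraries, so the shared order is part of how they were picked.

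None of the 6 tested members that were not chosen for their rise passed the threshold in edgeR's quasi-likelihood test, where 19.8% of all genes did (10.2% higher and 9.52% lower). At an unadjusted p under 0.05 the count was 0 in either direction, with the share of all genes at that p not given here. DESeq2 called 0 too, where it called 2049 higher and 1877 lower among all 20285 rows. Their median log2 change was −0.305, against −0.008 over all genes tested, and 5 of the 6 changes were below 0. In all 6 the groups overlapped, where 42.6% of all genes tested did not. A p that misses the threshold does not show that the levels were alike, and the SEs below bound what 3 pools a group could show.

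MASP2, the protease that cleaves C4 in the lectin pathway, had only 9, 11 and 18 counts in heat stress replicates 1, 2 and 3, and 18, 13 and 10 counts in thermoneutral replicates 1, 2 and 3. The ranges nearly coincide, at a log2 change of −0.11 (SE 0.46, edgeR adjusted p = 0.881). Counting error alone gives a coefficient of variation of 28.1% in heat stress libraries and 27.1% in thermoneutral libraries, against 45.6% and 30.9% observed in heat stress and thermoneutral libraries. MASP2 lies on the minus strand of chromosome 21 at 4078712 to 4105097.

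C3, which all pathways cleave, had 67.7, 75.9 and 74.8 CPM in heat stress libraries, against 74.3, 71.8 and 52.6 CPM in thermoneutral libraries. The lowest value was thermoneutral replicate 3, and the others lay between 67.7 and 75.9 CPM. The log2 change was 0.14 (SE 0.13, edgeR adjusted p = 0.494). The file's C3 row spans 183 kb of chromosome 30 (491364 to 674579) for 8037 bp of exons, and 11 other rows lie within it or overlap it. Whether reads of those rows were shared with C3 is not stated in any source at hand, which leaves its count uncertain. Of the 11 rows, 3 were called, where 19.8% of all genes tested were. Rows with no symbol at 542714 to 546916 and at 553832 to 556652 had too few counts, and all others of the 11 were tested. Nothing is read from so small a number of rows. MRPL4 was among the tested rows that were not called. FCER2 was lower (log2 change −1.82, SE 0.27, edgeR adjusted p = 0.0102), EVI5L was lower (−0.45, SE 0.10, edgeR adjusted p = 0.0203), and a row on the same strand with no symbol in the file or RefSeq, at 190 CPM in heat stress libraries and 146 CPM in thermoneutral libraries, was higher (0.38, SE 0.11, edgeR adjusted p = 0.0452).

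C5, whose cleavage starts the terminal pathway, had 2.85, 2.01 and 2.30 CPM in heat stress libraries, against 3.64, 3.14 and 2.49 CPM in thermoneutral libraries. Heat stress replicate 1 reached into the thermoneutral range, and the log2 change was −0.37 (SE 0.24, edgeR adjusted p = 0.310). On chromosome 17, C5 overlaps TRAF1 on the same strand, so reads of the overlap are uncertain.

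C7, which anchors the growing pore in the membrane, had 6.35, 5.42 and 5.91 CPM in heat stress libraries, against 4.61, 12.1 and 9.10 CPM in thermoneutral libraries. The heat stress libraries lay close together, at a coefficient of variation of 7.91%, within counting error (8.21%), while the thermoneutral libraries spread over 43.9%. The log2 change was −0.55 (SE 0.33, edgeR adjusted p = 0.264), and without thermoneutral replicate 1, the lowest library, it was −0.85 with an edgeR adjusted p of 0.0442. Without thermoneutral replicate 2 it was −0.22. Summed levels of 12 fibroblast markers were 4320 to 4550 CPM in heat stress libraries and 4000, 5840 and 5030 CPM in thermoneutral replicates 1, 2 and 3. Those of 10 smooth muscle markers were 5290 to 7050 CPM in heat stress libraries and 5550, 8920 and 8350 CPM in thermoneutral replicates 1, 2 and 3. In both sums and in C7, replicate 1 was the lowest and replicate 2 the highest thermoneutral library. The sum of 6 oviduct markers had this order too, at 1460, 2150 and 1580 CPM in thermoneutral replicates 1, 2 and 3. The order is thus not particular to fibroblast and smooth muscle markers. Sums of the hepatocyte, macrophage and dendritic, epithelium, endothelium and lymphocyte markers did not have it. PDGFRB, COL1A1, COL1A2, COL3A1, OGN, MYH11, DES, SYNPO2, LMOD1, SMTN and MYLK singly kept this order. PDGFRA, LUM, DCN, DPT, FBLN1, THY1, MFAP5, ACTA2, ACTG2, CNN1 and TAGLN did not. In heat stress replicates 1, 2 and 3 the sums were 4410, 4550 and 4320 CPM (fibroblast) and 5290, 7050 and 6420 CPM (smooth muscle). Both were highest in replicate 2, where C7 was lowest. The part of these cells in the C7 values was not tested. In bulk tissue, fewer cells of a type and less RNA per cell cannot be told apart. C7 overlaps RPL37 and PRKAA1 on the opposite strand of chromosome Z, and no source at hand states whether the counting used strand.

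C1S, the protease of the classical pathway that cleaves C4 and C2, had 30.3, 30.9 and 48.0 CPM in heat stress libraries, against 39.2, 43.6 and 46.0 CPM in thermoneutral libraries. Heat stress replicate 3 was the highest of all 6 libraries and the other heat stress libraries were below all thermoneutral ones, giving a log2 change of −0.24 (SE 0.18, edgeR adjusted p = 0.382). Without heat stress replicate 3 it was −0.48 (edgeR adjusted p = 0.0563). Its partner protease C1R lies 3462 bp away on the opposite strand of chromosome 1, with the 3′ ends of the pair facing each other. C1R fell to 22.5, 24.8 and 32.6 CPM in heat stress libraries, against 37.4, 45 and 38.2 CPM in thermoneutral libraries (log2 change −0.59, SE 0.15, edgeR adjusted p = 0.0322). It was lower in 3 of 3 heat stress libraries, but passed in only 1 of the 6 fits that leave out a library. The difference between the changes of C1R and C1S was not tested.

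CFI, the protease that inactivates C3b and C4b, had 0.643, 1.11 and 0.913 CPM in heat stress libraries, against 1.42, 2.81 and 0.933 CPM in thermoneutral libraries. The groups overlap, since heat stress replicate 2 was above thermoneutral replicate 3. With 16 to 31 counts in heat stress libraries and 24 to 68 counts in thermoneutral libraries, the log2 change of −0.94 had an SE of 0.45 (edgeR adjusted p = 0.176). With a library left out it ran from −1.24, without thermoneutral replicate 3, to −0.39, without thermoneutral replicate 2, and did not pass in any of these fits. The nearest row after it on the same strand, PLA2G12A, 1747 bp away, was higher under heat stress (log2 change 0.45, SE 0.13, edgeR adjusted p = 0.0478). Of the rows nearest to the other tested members, TARDBP next to MASP2 was higher (log2 change 0.42, SE 0.08, edgeR adjusted p = 0.014) and LPCAT3 next to C1S was lower (−0.32, SE 0.09, edgeR adjusted p = 0.0406). GAR1, TTC33, PLCXD3, PHF19, CNTRL, PGLS and ILVBL were not called and SS2 had too few counts.

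**Figure D3:**
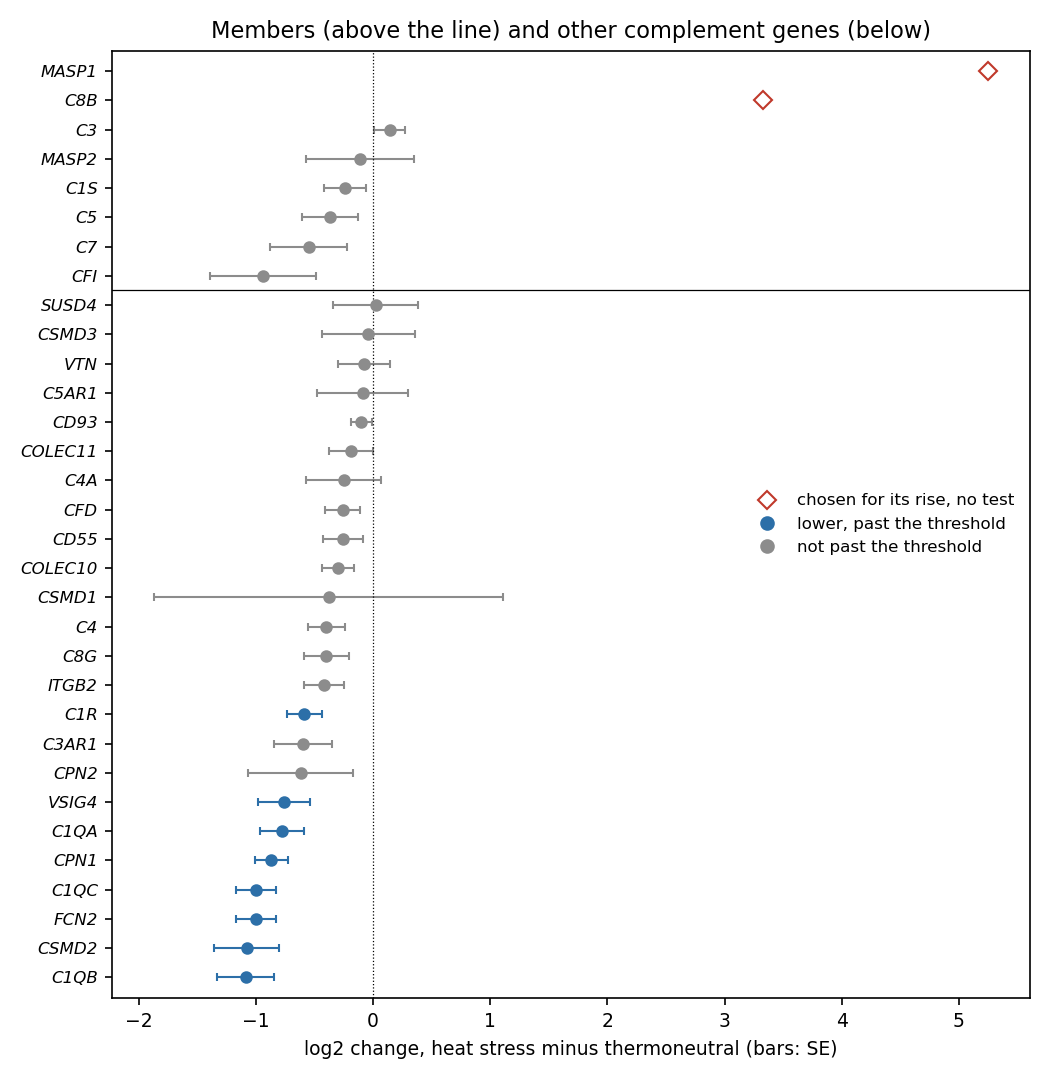
Log2 change, heat stress minus thermoneutral, of the 8 tested members above the line and 24 of the 25 other tested complement genes below it, with SE bars. MASP1 (5.25) and C8B (3.33) are drawn as open diamonds with no SE since they were chosen for their rise; the 8 genes past the threshold are all lower.

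Per length, in the FPKM that the authors deposited, C3 and C1S were the most abundant members. In heat stress libraries the medians ran C3 12.1, C1S 9.84, C7 4.14, C8B 3.56, MASP1 1.97, CFI 0.429, C5 0.398, MASP2 0.179 and C8A 0.0438 FPKM. Neighbours in this order overlapped, except that C1S was above C7 and MASP2 above C8A in every library. In thermoneutral libraries the medians ran C1S 14.8, C3 12.5, C7 6.84, CFI 0.722, C5 0.583, C8B 0.344, MASP2 0.267 and MASP1 0.0445 FPKM, with C8A listed at 0. There, CFI with C5 and C8B with MASP2 were the neighbours that overlapped, and the highest C7 library and the lowest C3 library both stood at 9.15 FPKM as rounded. MASP1 and C8B thus stood at ranks 5 and 4 of 9 in heat stress libraries, against ranks 8 and 6 in thermoneutral libraries. C8B in heat stress libraries, at 0.877 to 5.57 FPKM, reached the range of C7, at 3.73 to 4.58 FPKM.

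The carriers of the lectin proteases were measured beside them. MBL2, mannose-binding lectin, had 4, 0 and 0 counts in heat stress libraries and 1, 2 and 0 counts in thermoneutral libraries, too few to test. COLEC10, a collectin that binds MASP proteases, had 32.0, 39.9 and 38.9 CPM in heat stress libraries, against 38.6, 53.6 and 43.8 CPM in thermoneutral libraries, and did not pass (log2 change −0.30, SE 0.14, edgeR adjusted p = 0.169). COLEC11, its partner, did not pass either (log2 change −0.19, SE 0.19, edgeR adjusted p = 0.485). FCN2, a ficolin named here through RefSeq, fell to 5.99, 6.10 and 4.52 CPM in heat stress libraries, against 11.5, 11.4 and 10.4 CPM in thermoneutral libraries. Its groups were well apart, with a log2 change of −1.0 (SE 0.17, edgeR adjusted p = 0.0118), lower in 3 of 3 heat stress libraries, and it passed in 4 of the 6 fits that leave out a library.

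**Figure D4:**
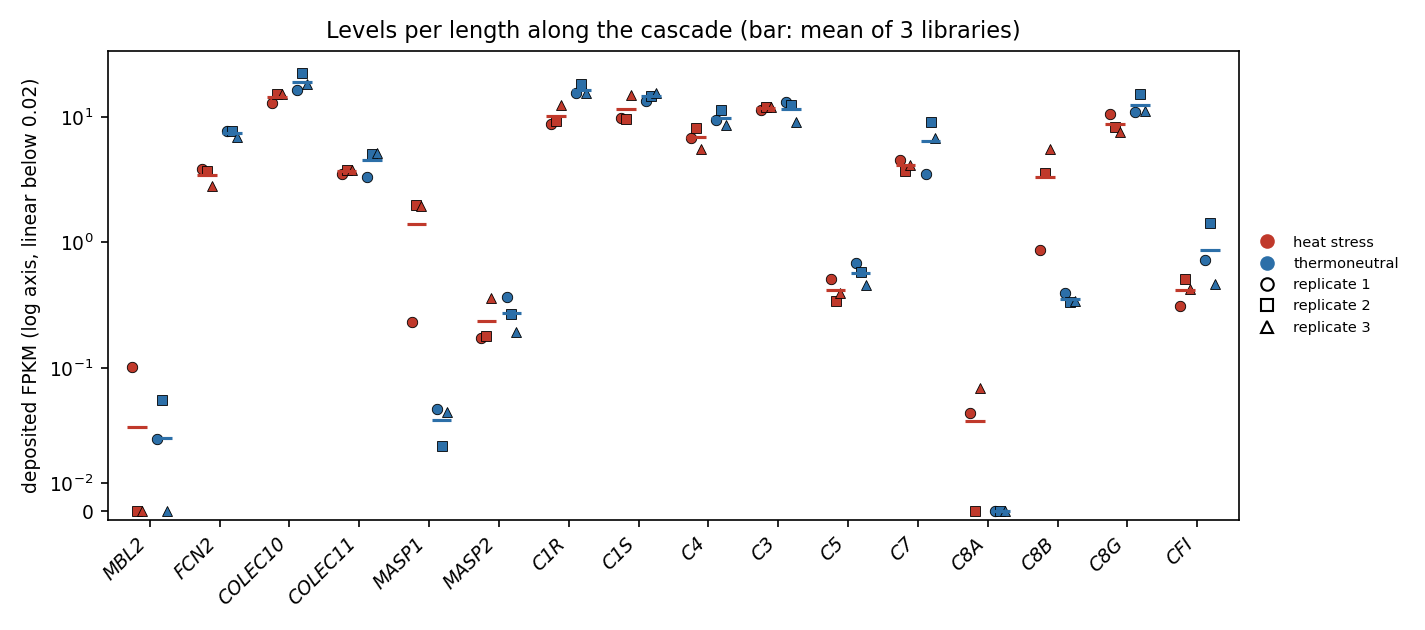
Deposited FPKM of recognition molecules, proteases, central and terminal components and the regulator CFI by library, in the order of the cascade, on an axis that is logarithmic above 0.02 FPKM and linear below it. Symbols are single libraries and bars the means of 3, heat stress left of thermoneutral; the median of MASP1 was 1.97 FPKM in heat stress libraries and 0.0445 in thermoneutral libraries, that of FCN2 3.74 and 7.68 FPKM in heat stress and thermoneutral libraries.

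A further 49 complement genes were listed, also with earlier results of these data known, so their shares are a description. Of the 49, 26 had a row and 25 were tested. Of these, 8 were lower (32.0%, against 9.52% of all genes tested), 0 were higher and 17 did not pass. DESeq2 likewise called 8 lower and 0 higher, where it called 1877 lower and 2049 higher among all 20285 rows. At an unadjusted edgeR p under 0.05 there were 11 lower and 0 higher. The share of all genes at that p is not given here, so nothing is read from these counts. The median log2 change was −0.398, and 24 of the 25 changes were below 0. Beside FCN2 and C1R, the genes past the threshold were the C1q chains C1QA, C1QB and C1QC (log2 changes −0.78, −1.09 and −1.0), CPN1, CSMD2 and VSIG4. CPN1, the catalytic subunit of the carboxypeptidase that trims complement anaphylatoxins, fell to 6.59, 6.13 and 6.61 CPM in heat stress libraries, against 10.8, 12.9 and 11.7 CPM in thermoneutral libraries (log2 change −0.87, SE 0.14, edgeR adjusted p = 0.0111). CSMD2, a membrane protein with complement control repeats, fell to 0.683, 0.861 and 0.913 CPM in heat stress libraries, against 1.90, 1.40 and 1.90 CPM in thermoneutral libraries. Its log2 change was −1.08 (SE 0.28, edgeR adjusted p = 0.0363). VSIG4, a complement receptor of macrophages, fell by 0.76 on the log2 scale (SE 0.22, edgeR adjusted p = 0.0452). CSMD2 and VSIG4 passed in 0 of the 6 fits that leave out a library, and with the replicate number as a block their edgeR adjusted p was 0.0682 for CSMD2 and 0.0705 for VSIG4. Leaving out a library left between 1 and 5 of these calls. The count was 5, 4 and 2 when heat stress replicate 1, 2 or 3 was left out, and 4, 1 and 3 when thermoneutral replicate 1, 2 or 3 was. C1QC passed in all 6 of these fits, with an edgeR adjusted p of up to 0.0499. CPN1 passed in 4 of the 6, and C1QA and C1QB passed in only 2 each.

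C1QA, C1QB, C1QC and VSIG4 are also among 16 macrophage and dendritic markers with a row, of which 5 were lower (31.2%, against 9.52% of all genes tested) and 0 higher (against 10.2%). Their calls are the same ones counted above among the complement genes, so the 31.2% is no separate result. The only other marker called was IRF8 (log2 change −0.69, SE 0.09, edgeR adjusted p = 0.00873). The summed level of the 16 markers was 679 to 974 CPM in heat stress libraries and 993 to 1170 CPM in thermoneutral libraries. The part of that sum in the complement changes was not tested. Most of the sum was CTSS and IRF8, named after their values were seen. CTSS had 310, 599 and 438 CPM in heat stress libraries, against 477, 582 and 456 CPM in thermoneutral libraries, and was not called. IRF8 had 224, 220 and 214 CPM in heat stress libraries, against 381, 368 and 316 CPM in thermoneutral libraries. The groups overlapped in CTSS and did not overlap in IRF8. Regulators and receptors with no call included CD55, which speeds the decay of C3 convertases (log2 change −0.26, SE 0.17), C3AR1, the receptor of C3a (−0.60, SE 0.25, edgeR adjusted p = 0.130) and C5AR1, a receptor of C5a (−0.09, SE 0.39). Symbols of CD55 and C5AR1 came from RefSeq.

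Since the liver makes most circulating complement, 25 hepatocyte markers were listed, of which 22 had a row and 9 were tested. ALB, the defining plasma protein, was at 0.482, 0.395 and 0.478 CPM in heat stress libraries and 0.202, 0.496 and 0.544 CPM in thermoneutral libraries, while FGA was at 0 counts in heat stress replicates 1 and 2 and in all thermoneutral libraries. Among the 9 tested, 0 were higher (against 10.2% of all genes) and 2, TAT and CYP2C18, were lower (22.2%, against 9.52% of all genes). These genes, FGA and APOA1 were named after their values were seen. The summed level was 753 to 1030 CPM in heat stress libraries and 1010 to 1030 CPM in thermoneutral libraries, almost all of it APOA1 and CYP2C18. TTR, also named after its values were seen, had 0.442, 1.61 and 1.04 CPM in heat stress libraries, against 0.526, 0.867 and 0.816 CPM in thermoneutral libraries. The summed level was 753, 1030 and 765 CPM in heat stress replicates 1, 2 and 3. Of the tested markers, TTR, TAT and APOA1 were lowest among heat stress libraries in replicate 1. ALB, SERPINC1, CPS1 and HNF4A were highest there, and FGB and CYP2C18 were lowest in replicate 3. SERPINC1, CPS1, HNF4A and FGB were also named after their values were seen. The part of such cells in the complement values was not tested.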

How the data were processed

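RNA of uterovaginal junctions was sequenced from 6 libraries, and per the labels' protocols RNA of 4 hens was pooled for each, messenger RNA was taken with poly-T beads and dUTP marked the second strand. The authors' deposited read counts are raw whole numbers per gene, and the submitters' processing notes name fastp, HISAT2 2.0.5, featureCounts 1.5.0-p3 and GRCg6a. No label or header states the annotation release, strand setting or filters. The deposited FPKM values, which follow from counts, gene length and library totals to within 0.0849%, were used only for levels per length. Symbols are the file's (12494 rows) or, for 1013 more rows, RefSeq's for GRCg7b, matched through the gene or transcript number in the description and used for names only.

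Heat stress was compared with thermoneutral in edgeR 4.0.16 (R 4.3.3) on the counts, with TMM scaling, filterByExpr, the robust quasi-likelihood test and Benjamini-Hochberg adjustment over 15655 genes at a threshold of 0.05. CPM uses TMM-scaled totals. SE is the absolute log2 change over the square root of F. Log2 CPM used a prior count of 2. A limit for a count of 0 is 3 counts. Libraries of a group differed by more than counting noise (chi-square per degree of freedom of 22.1 to 107), and each counted as a sample. The script was tested on simulated data. Alternatives were RLE and upper-quartile scaling, no filter, a stricter filter (1 CPM in all libraries of a group), DESeq2 1.42.0, a replicate block and each library left out. The members and lists were chosen with earlier results of these data known. Named were all members, list genes past the threshold or next to a member in the cascade, nearest rows, the 3 nearest profiles of MASP1 and C8B, and defining markers. The values of 1 other complement gene are not reported here.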

Additional observations from a re-analysis of the deposited data

How the results depend on the processing

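The 6 tested members not chosen for their rise had 0 calls in either direction under every alternative run, except that C7 was called lower without thermoneutral replicate 1, so that the count of lower members ran from 0 to 1 with a library left out. MASP1 kept a log2 change of 4.90 to 5.77 and C8B of 2.76 to 3.81 over all alternatives that could give a value. The stricter filter removed MASP1, MASP2 and CFI. The change of C3 ran from 0.00 to 0.23 and that of MASP2 from −0.53 to 0.14. The count of 8 lower genes among other complement genes was 8 again under both other scalings, both other filters and DESeq2, and 1 to 5 with a library left out. Over all genes, 1602 higher and 1490 lower calls became 145 to 2027 and 154 to 1672 with a library left out. Upper-quartile scaling gave 1265 higher and 1789 lower. Deviations of same-numbered libraries correlated across genes at −0.048, 0.25 and 0.072 for numbers 1, 2 and 3, not every heat stress library lay nearest to its own number, and the numbers are not taken as pairs. With the replicate block 1291 genes were higher and 1431 lower, MASP1 changed by 5.01 and C8B by 3.02, and no call of a member changed. The block also gave 8 lower complement genes, but CSMD2 and VSIG4 lost their calls and C4 (edgeR adjusted p = 0.0296) and ITGB2 (edgeR adjusted p = 0.0382) gained one. A search of promoters for heat shock elements was listed and not run, since no sequence was used here. Below about 1 CPM, in MASP2, C8A, heat stress CFI and thermoneutral MASP1, counting error limits what could be seen. In thermoneutral libraries the coefficient of variation of CFI was 56.6%, against 15.4% from counting error, so spread between pools limits it more there.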

Other observations

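Acute phase genes and their regulators, which accompany complement in the liver's response to inflammation, were also listed. Of 17 genes 13 had a row and all were tested, with 0 higher (against 10.2% of all genes tested) and 2 lower (15.4%, against 9.52%) in edgeR's quasi-likelihood test (median log2 change −0.134). At an unadjusted p under 0.05 there were 2 higher and 2 lower, with the share of all genes at that p not given here. DESeq2 called 2 higher and 2 lower, where it called 2049 higher and 1877 lower among all 20285 rows. The genes below were named after their values were seen. SOCS3, a feedback inhibitor of cytokine signalling, had 9.04, 8.11 and 8.22 CPM in heat stress libraries, against 10.7, 16.1 and 12.1 CPM in thermoneutral libraries (log2 change −0.62, SE 0.18, edgeR adjusted p = 0.0459). NFKBIA, the inhibitor of NF-kappa-B, had 63.6, 61.2 and 70.3 CPM in heat stress libraries, against 80.7, 82.9 and 84.1 CPM in thermoneutral libraries (log2 change −0.34, SE 0.07, edgeR adjusted p = 0.0204). CEBPB, a transcription factor known to act on acute phase genes, had 65.8, 115 and 117 CPM in heat stress libraries, against 56.2, 60.9 and 62.1 CPM in thermoneutral libraries. Its groups did not overlap and heat stress replicate 1 was the lowest of its group, but CEBPB did not pass (log2 change 0.73, SE 0.21, edgeR adjusted p = 0.0564). CEBPD, of the same family, had 105, 140 and 158 CPM in heat stress libraries, against 96.7, 101 and 103 CPM in thermoneutral libraries. Its groups did not overlap either, and it did not pass (log2 change 0.42, SE 0.14, edgeR adjusted p = 0.0742). These were the only 2 of the 13 with every heat stress library above every thermoneutral library, against 21.5% of all genes tested. In 5 of the 13 every heat stress library was below every thermoneutral library, against 21% of all genes tested. The 5 were SOCS3, NFKBIA, IL6R, IL1B and STAT3.

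The row that the file describes as the alpha chain of C4b-binding protein, which RefSeq names C4BPS, was singled out after its values were seen. It had 51.4, 96.0 and 101 CPM in heat stress libraries, against 158, 169 and 87.8 CPM in thermoneutral libraries, and did not pass (edgeR adjusted p = 0.18). CSMD1, a membrane regulator of complement, also singled out after its values were seen, had 0.603, 4.38 and 99.9 CPM in heat stress libraries, against 24.7, 76.3 and 35.1 CPM in thermoneutral libraries (log2 change −0.38, SE 1.49, edgeR adjusted p = 0.880).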
